A study of Mus musculus with 9 samples.

Results

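The respiratory chain and ATP synthase genes of a mouse mesenchymal stromal cell (MSC) line were followed across 3 culture conditions. They were chosen by name from the deposited expression table: the Nduf genes of complex I, the Sdh genes of complex II, the Uqcr genes of complex III, the Cox4i to Cox8 genes of complex IV, the Atp5 genes of complex V, and the genes of the mitochondrial genome for the same complexes. The rule took 105 of 21959 genes, 92 nuclear and 13 mitochondrially encoded, and used no measured value. A name rule also takes genes that are no subunits: Sdhaf1 to Sdhaf4 encode assembly factors of complex II, Cox7a2l encodes a factor that joins complexes III and IV into supercomplexes, and Ndufb11b is a copy of an accessory subunit gene. It misses Cyc1, which encodes the cytochrome c1 subunit of complex III.

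RNA of the line, labelled as bone marrow stromal cells with SV40, was sequenced after 24 h in 3 groups of 3 libraries. All groups were kept in DMEM/F12 with 10% fetal bovine serum. The groups differed in what was added: peritoneal fluid of control mice (control PF), peritoneal fluid of mice treated for 3 days with TNBS, a hapten that induces colitis (TNBS PF), or phosphate-buffered saline (PBS). All results come from 1 line, and strain, age and number of the fluid donors were not stated in the labels. Nor do the labels tell whether a group's libraries came from separate cultures or donors: p-values thus reflect the spread of these libraries alone, and that spread may be technical.

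The respiratory chain passes electrons from NADH and succinate to oxygen through complexes I to IV and pumps protons across the inner mitochondrial membrane, and complex V, the ATP synthase, uses the proton gradient to make ATP. Most subunits are encoded in the nucleus and imported, while a core of subunits of complexes I, III, IV and V is encoded by the mitochondrial genome, so that assembly needs products of both genomes. Some complex IV subunits have isoforms of heart and skeletal muscle, testis or lung beside the ubiquitous form. Stromal cells in culture draw on glycolysis as well as on this chain.

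Levels are FPKM, fragments per length of the gene and per assigned fragments of the library. Differences are log2 fold changes of FPKM + 1, fitted with limma across all 9 libraries, and a gene was called at a Benjamini-Hochberg adjusted p under 0.05 over the 10537 genes with at least 1 FPKM in at least 3 libraries. The libraries held 17.9 M to 25.6 M assigned fragments. All 12 stromal markers looked at were expressed, among them Col1a1 (239 to 321 FPKM) and Itgb1 (476 to 520.0 FPKM). Of the hematopoietic markers that such cells should lack, Ptprc and Itgam were at or near 0 (at most 0.0159 FPKM), but Cd34 (44.7 to 50.4 FPKM) and Cd14 (12.0 to 15.6 FPKM) were present. The summed level of the 12 stromal markers was 1597 to 1667 FPKM in PBS, 1570 to 1589 in control PF and 1485 to 1508 in TNBS PF. That of 6 mesothelial markers was 42.4 to 44.5, 40.3 to 41.6 and 47.7 to 52.2 FPKM, with Msln carrying most of it and the defining markers Upk3b and Lrrn4 at or near 0 (at most 0.0395 FPKM). Single stromal markers moved both ways. Of the 12, 2 were called higher and 5 lower in TNBS PF against control PF, where 10.6% of all tested genes were called. In TNBS PF against PBS 2 were higher and 6 lower, where 16.7% were called, with Nt5e at 0.44 and Col3a1 at −0.77. In control PF against PBS 1 was higher and 2 lower, where 2.15% were called. The part of these shifts in the results was not tested, and in bulk RNA fewer cells of a type and less RNA per cell cannot be told apart.

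Some mitochondrially encoded genes have copies in the nuclear genome with which reads can be shared. In mm10 with GENCODE M21, 5 of the 13 genes, mt-Co2, mt-Co3, mt-Atp6, mt-Nd3 and mt-Nd4l, shared 97.6 to 99.9% of their 100-base windows with other genes. mt-Nd4 shared 60.8%, mt-Co1 30.8%, mt-Nd2 3.2% and the other 5 genes 0. The copies of mt-Co2 (Gm28661), mt-Co3 (Gm28437), mt-Atp6 (Gm10925), mt-Nd4 (Gm28439) and mt-Nd4l (Gm10222) carried 0 mismatches over 294 to 876 bases compared. To show how little separates a gene from its copy, 60 bases of mt-Nd3 (bases 1 to 60 of its transcript) stand beside its copy Gm28438 at chr1:24612775-24613119, minus strand, which differed at 1 of 345 bases. Capitals mark the bases that differ.

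mt-Nd3: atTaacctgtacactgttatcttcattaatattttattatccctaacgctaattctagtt
Gm28438: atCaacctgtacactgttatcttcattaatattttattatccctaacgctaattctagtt

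A second stretch sets bases 1054 to 1113 of mt-Co1 beside one end of its copy Gm29216 at chr1:24615706-24616197, minus strand, with 6 mismatches over 492 bases. Capitals again mark the differing bases, which lie together at the end of the copy and leave the rest of the stretch identical.

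mt-Co1: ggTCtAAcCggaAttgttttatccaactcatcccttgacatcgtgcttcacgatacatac
Gm29216: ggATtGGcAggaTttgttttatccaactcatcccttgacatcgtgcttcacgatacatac

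The promoters of nuclear members were read for motifs of 3 factors known to control respiratory genes: NRF1 (GCGC, any base, then TGCGC), the ETS factor GABPA (CCGGAAG) and YY1 (AAGATGGC), each searched alone on both strands, so that matches could overlap. RefSeq promoters (GRCm38.p6, 250 bases before to 50 after the start) were found for 74 of 91 nuclear member symbols. A match to any of the 3 motifs was present for 57.4% of 68 tested nuclear members with an entry, for 35.1% of all 8449 tested genes with one and for 16.4% of all 27025 genes. By motif the shares of tested nuclear members and of tested genes were 25% and 12.5% for NRF1, 26.5% and 21.9% for ETS, and 14.7% and 5.7% for YY1. A match is a description of letters and shows no binding.

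Promoters are shown for Atp5e and Ndufs6, which were higher in both fluids than in PBS, and for Atp5b, the most abundant nuclear member. Capitals mark motif matches: 1 ETS match in Atp5e, 1 NRF1 and 1 YY1 match in Ndufs6, and none in Atp5b.

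Atp5e (chr2:174464052-174464351, minus strand): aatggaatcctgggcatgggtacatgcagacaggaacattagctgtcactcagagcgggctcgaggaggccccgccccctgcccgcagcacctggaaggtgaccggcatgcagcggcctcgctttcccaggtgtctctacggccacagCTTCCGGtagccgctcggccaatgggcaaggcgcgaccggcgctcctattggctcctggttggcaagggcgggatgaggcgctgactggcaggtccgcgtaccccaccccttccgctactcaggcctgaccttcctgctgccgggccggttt
Ndufs6 (chr13:73328433-73328732, minus strand): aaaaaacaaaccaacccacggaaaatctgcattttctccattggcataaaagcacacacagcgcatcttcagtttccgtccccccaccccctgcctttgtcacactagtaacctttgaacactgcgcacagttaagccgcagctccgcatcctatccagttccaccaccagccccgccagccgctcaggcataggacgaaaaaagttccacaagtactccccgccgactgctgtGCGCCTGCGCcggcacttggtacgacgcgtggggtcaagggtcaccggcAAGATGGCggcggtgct
Atp5b (chr10:128083057-128083356, plus strand): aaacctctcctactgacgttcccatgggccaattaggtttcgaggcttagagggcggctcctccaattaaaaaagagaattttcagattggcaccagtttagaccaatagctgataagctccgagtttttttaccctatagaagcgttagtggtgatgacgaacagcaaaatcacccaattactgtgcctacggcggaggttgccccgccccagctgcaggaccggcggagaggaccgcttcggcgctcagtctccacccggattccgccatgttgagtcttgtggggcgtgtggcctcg

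Of the 105 members, 94 passed the filter on low values and were tested, 82 nuclear and 12 mitochondrially encoded. The 11 not tested were Ndufb2, Sdhaf1, Sdhaf3, Cox4i2, mt-Atp8, 1 row of Atp5o with 0.423 to 1.01 FPKM, and 5 genes listed at 0 in all 9 libraries: Cox7b2, Cox8b, Cox8c, Ndufb11b and the second row of Atp5o. The rows of Atp5o, a gene for a peripheral stalk subunit of complex V, overlap each other and further genes. Overlap covers 47.9% of the exons of the first row and 100% of those of the second, so the level of Atp5o is uncertain. For Sdhaf1 69.6% of the exons overlap E130208F15Rik on the other strand. For a gene of 1 kb, 3 fragments, the number that a count of 0 still allows, equal 0.117 to 0.168 FPKM in these libraries, for counting error only. Ndufb2, an accessory subunit of complex I, had 0.259 to 0.514 FPKM and 5628 bases of annotated exon.

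The mitochondrially encoded members were the most abundant. The level of mt-Co1, the catalytic subunit of complex IV, was 8803, 9400 and 9192 FPKM in PBS, 9517, 9104 and 8947 in control PF, and 9342, 9018 and 9125 in TNBS PF. mt-Cytb, the cytochrome b of complex III, averaged 4099 FPKM over the 9 libraries (3833 to 4409), and mt-Nd1, a membrane subunit of complex I, 3301 (2966 to 3548). The lowest tested one, mt-Nd4l, lay at 2.83, 1.12 and 2.49 FPKM in PBS, 3.74, 3.98 and 6.57 in control PF, and 3.09, 4.47 and 2.79 in TNBS PF, so that the 3 PBS values were below all control PF values and overlapped with those of TNBS PF. The 5 genes that share nearly all their windows with copies had mean levels of 3.45 to 231 FPKM, whereas the 4 tested genes that share none had 343 to 4099 FPKM. The part of the shared sequence in these levels was not tested.

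**Figure D1:**
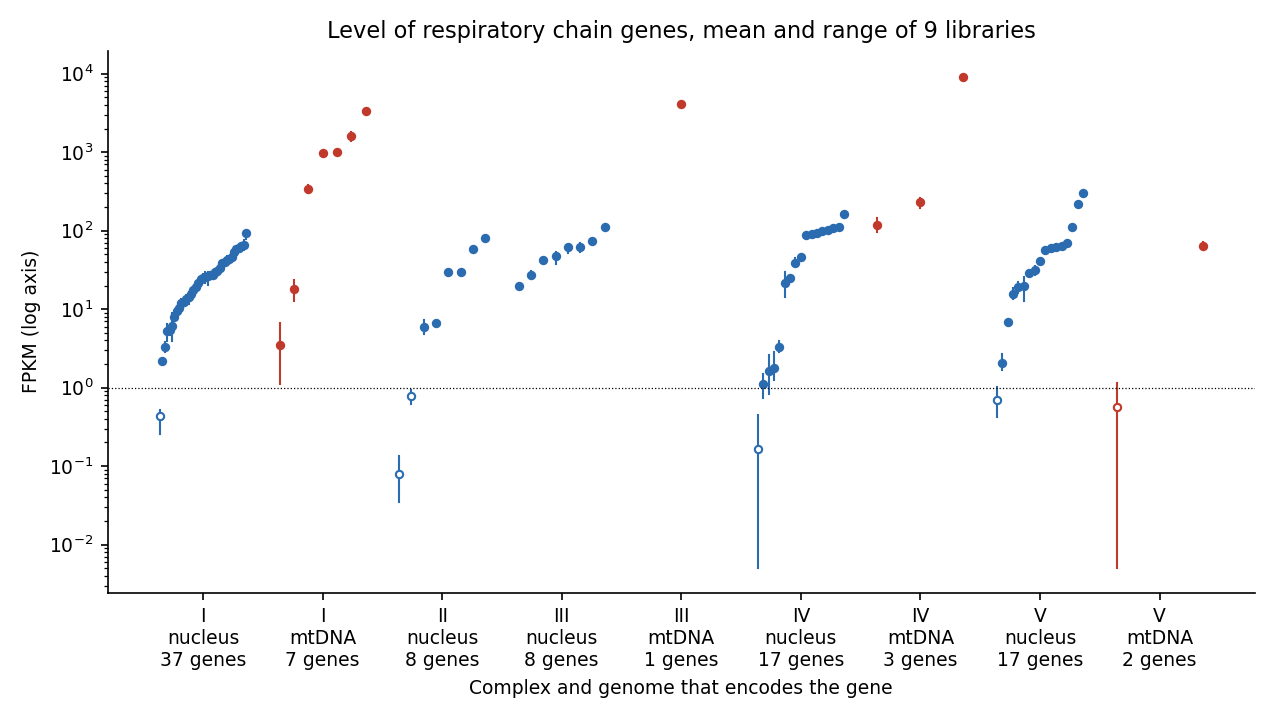
Level of each member above 0 on a log axis of FPKM, by complex and by the genome that encodes it (points, mean of 9 libraries; bars, lowest to highest library; open points, not tested; dotted line, 1 FPKM; bars end at the bottom of the plotted range where a library is at 0). mt-Co1, mt-Cytb and mt-Nd1 lie highest, at 9161, 4099 and 3301 FPKM, and Atp5b leads the nuclear members at 303 FPKM.

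Tested nuclear members spread from 1.11 FPKM (Cox7a1) to 303 FPKM (Atp5b). In complex I the highest was Ndufc2, an accessory subunit of the membrane arm, at 78.3, 97.8 and 88.8 FPKM in PBS, 100.4, 99.0 and 92.4 in control PF, and 100.3, 96.8 and 98.0 in TNBS PF. The lowest tested was Ndufab1, the mitochondrial acyl carrier protein (1.99 to 2.31 FPKM over the 9 libraries), which has 6883 bases of annotated exon. Ndufc2 was low in PBS 1 and overlapped between all groups.

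In complex II, Sdhd, a membrane anchor subunit, led with 79.2 to 81.1 FPKM in PBS, 79.4 to 85.6 in control PF and 80.4 to 83.6 in TNBS PF. The assembly factor Sdhaf4 was lowest of the tested (4.87 to 7.21). The catalytic subunits Sdha (56.2 to 62.1 FPKM) and Sdhb (26.3 to 30.9 FPKM) overlapped between groups.

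In complex III, Uqcrh, the hinge protein, was highest, at 103, 120.3 and 107 FPKM in PBS, 119, 111 and 120.1 in control PF, and 99.2, 108 and 107 in TNBS PF. All 3 TNBS PF values lay below all 3 control PF values, and the difference was −0.16 (adjusted p = 0.0735). Uqcrc1, a core protein on the matrix side, was lowest (18.5 to 20.8 FPKM).

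In complex IV, Cox6b1, which faces the intermembrane space, was highest, at 146, 175 and 164 FPKM in PBS, 170.4, 160.3 and 172 in control PF, and 173, 169 and 158 in TNBS PF. The muscle isoform Cox7a1 was lowest of the tested (0.733 to 1.51 FPKM). In complex V, Atp5b, the catalytic beta subunit, was highest and Atp5l, a small membrane subunit, lowest of the tested (1.67 to 2.65 FPKM, 6443 bases of exon).

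The ubiquitous form dominated each pair of complex IV isoforms. Cox4i1 averaged 107 FPKM, while Cox4i2, the lung and hypoxia form, had 25 fragments in all 9 libraries together. Cox6a1 averaged 90.03 FPKM and its muscle isoform Cox6a2 1.61, Cox7a2 99.0 and its muscle isoform Cox7a1 1.11, and Cox6b1 165 and the testis isoform Cox6b2 1.77. The muscle form Cox8b and the testis forms Cox8c and Cox7b2 were at 0 in all libraries, beside 94.3 FPKM of Cox8a and 87.1 FPKM of Cox7b. The exception was Ndufa4l2, a paralog of the complex IV subunit gene Ndufa4 known to be induced in hypoxia, at 21.3 FPKM against 46.1 for Ndufa4.

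Before the comparisons, the PBS libraries need description, since they differed among themselves more than the others. The median coefficient of variation of the 82 tested nuclear members was 7.72% in PBS, 3.98% in control PF and 3.55% in TNBS PF, against 4.96%, 4.49% and 3.95% for all tested genes. PBS 2 had the highest of the 3 PBS values for 57 of the 82 nuclear members (69.5%), where all tested genes gave 32.1%, and for 10 of 12 mitochondrially encoded members. PBS 1 was lowest for 48 of the 82 and for 10 of the 12.

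The shift was larger in shorter genes, and was present in long members too. Tested nuclear members had a median exonic length of 1559.5 bases, against 4548 for all tested genes. The deviation of a library from the mean of 9, as a median over genes on the log2(FPKM + 1) scale, was −0.20 in PBS 1, 0.08 in PBS 2 and −0.10 in PBS 3 for nuclear members of up to 1000 bases, and −0.11, 0.02 and −0.06 for the 194 tested genes of that length. For all 4668 tested genes over 5000 bases it was 0.03, −0.000696 and 0.005. Nuclear members over 2000 bases lay at −0.06, 0.0064 and −0.06, while all tested genes between 2000 and 5000 bases lay at −0.01, 0.00213 and 0.00291. Of 81 cytosolic ribosomal protein genes, which encode the ribosome outside mitochondria, 70 were highest in PBS 2. The part of length and of these libraries in the results below was not tested. Calls and medians of the nuclear and of the mitochondrially encoded members are also given without PBS 2 and with libraries centred within 20 bins of gene length. PBS 2 was singled out on these same values. Leaving it out raises the difference of a fluid from PBS for each member that is highest in PBS 2 among the PBS libraries.

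**Figure D2:**
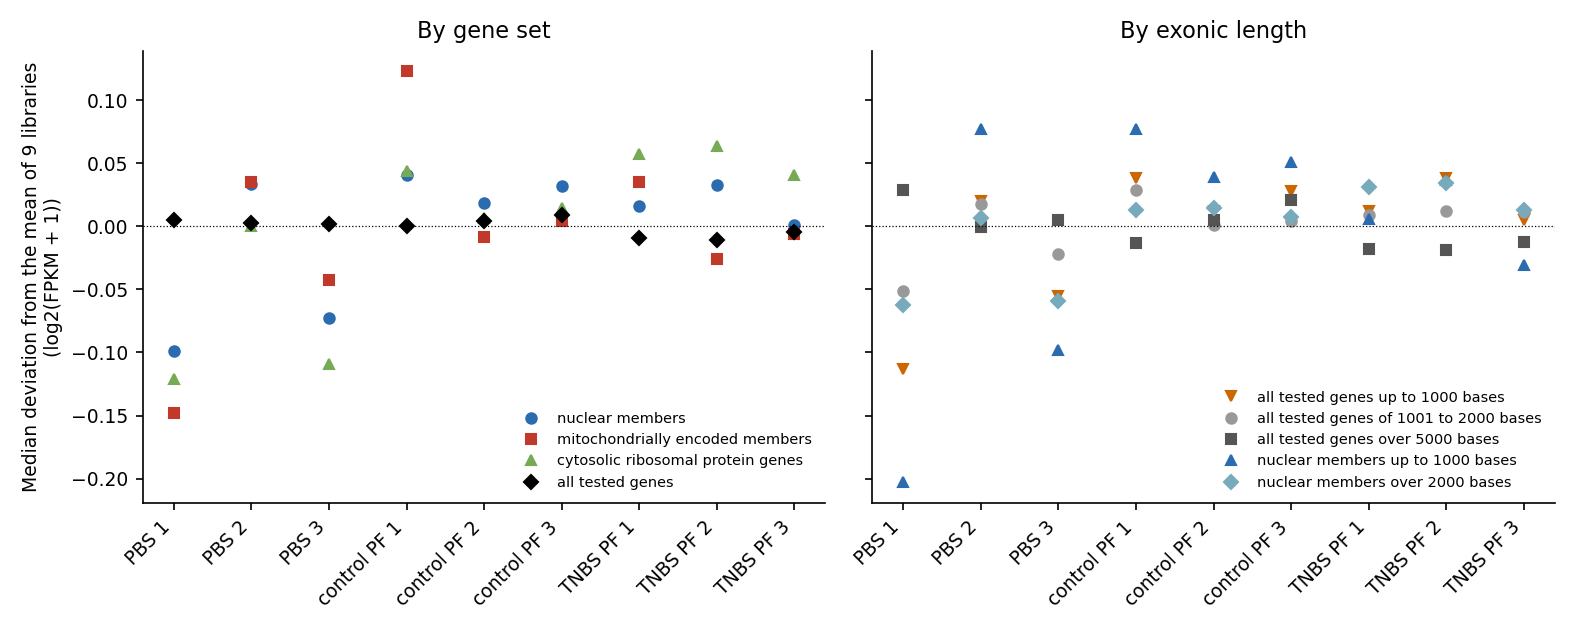
Median deviation of each library from the mean of the 9 libraries, on the log2(FPKM + 1) scale (y axis), for gene sets (left) and for classes of exonic length (right). PBS 1 and PBS 3 lie below 0 for the members and for short genes, PBS 2 lies near or above 0, and long genes lie near 0.

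Setting the 2 fluids against each other addresses what TNBS treatment of the donor mice changed in the recipient cells. Cox6c, Cox7a2l and Cox6b2 were lower in TNBS PF, by 0.22, 0.11 and 0.41 on the log2 scale. In all, 0 members were called higher and 3 lower of 94 (3.19%), where 10.6% of all tested genes were called, 5.15% higher and 5.45% lower. At an unadjusted p under 0.05 limma gave 4 members higher and 9 lower, where it gave 25.3% of all tested genes (1156 higher, 1505 lower). Limma voom on fragments recovered from the FPKM called 1 member higher and 3 lower, and 694 higher and 856 lower of 10525 genes.

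Cox6c, a small ubiquitous subunit of complex IV (chr15:35925886-35938246, minus strand), had 43.3, 41.7 and 44.2 FPKM in control PF and 35.8, 37.1 and 37.5 in TNBS PF. In PBS it had 35.2, 40.3 and 37.5. The control PF values stood above all others, and those of TNBS PF and PBS overlapped. Between the fluids it fell from 43.05 ± 1.29 to 36.8 ± 0.868 FPKM (SD, n = 3 each), by 0.22 on the log2 scale (SE 0.0439, limma adjusted p = 0.00669), and the call held in all 20 alternatives (adjusted p 0.000236 to 0.0334). Part of its exons, 7.01%, overlaps Vps13b on the other strand, and reads of the 2 genes cannot be told apart without strand.

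Cox7a2l, the supercomplex factor (chr17:83501918-83517330, minus strand), had 115, 113 and 115 FPKM in control PF and 103, 105 and 109 in TNBS PF. The PBS values were 109.7, 114 and 113. TNBS PF lay below control PF in every library, and PBS 1 was near the highest TNBS PF value. The fall was 0.11 (SE 0.0295, adjusted p = 0.0345, 0.00434 to 0.132 over alternatives), and it was not called without any 1 of control PF 1, 2 and 3 and TNBS PF 1 and 2.

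Cox6b2, the testis isoform of Cox6b1 (chr7:4751792-4753094, minus strand), had 1.87, 1.89 and 2.81 FPKM in control PF, 1.55, 1.34 and 1.26 in TNBS PF, and 1.72, 1.91 and 1.55 in PBS. Control PF 3 stood out as the highest of the 9 values. The 2 fluids did not overlap, and PBS overlapped with control PF. The fall of 0.41 (SE 0.103, adjusted p = 0.0231, 0.0208 to 0.085 over alternatives) was not called without control PF 3, TNBS PF 2 or TNBS PF 3. At this low level the size depended on the scale: it was −0.61 with a pseudocount of 0.1 and −0.65 with limma voom (adjusted p = 0.0527).

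The nuclear members had a median log2 fold change of −0.01 and the mitochondrially encoded ones −0.04, against −0.01 for all tested genes. Groups did not overlap for 14 of 94 members, 5 higher and 9 lower in TNBS PF, where 31.8% of all tested genes did not overlap (13.6% higher, 18.2% lower). Atp5b was among the 5, at 305, 296 and 297 FPKM in control PF and 319, 319 and 315 in TNBS PF, with a difference of 0.08 (adjusted p = 0.0625). That p was 0.0138 to 0.193 over alternatives, and under 0.05 in 6 of 20. The complex I accessory subunit gene Ndufa12 had 41.2, 41.2 and 40.6 FPKM in control PF and 47.6, 42.2 and 47.02 in TNBS PF (0.15, adjusted p = 0.0919).

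Setting control PF against PBS addresses the response to peritoneal fluid itself. Atp5e and Atp5g2 of complex V, Ndufs6 of complex I and Cox6c of complex IV were higher in control PF, and Ndufa4l2 was lower. Of 94 members 4 were called higher and 1 lower (5.32%), where 2.15% of all tested genes were called, 1.02% higher and 1.14% lower. At an unadjusted p under 0.05 limma gave 30 members higher and 1 lower, where it gave 15.6% of all tested genes (885 higher, 758 lower). Of the 82 nuclear members 73 had a log2 fold change above 0, with a median of 0.06, against 5322 of 10537 tested genes and a median of 0.000946. Groups did not overlap for 17 members higher and 1 lower in control PF, where 18.6% of all tested genes did not overlap (9.33% higher, 9.32% lower).

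Atp5e, the epsilon subunit of the F1 part of ATP synthase (chr2:174461072-174464105, minus strand), had 13.6, 13.7 and 13.3 FPKM in PBS, 17.2, 16.1 and 18.5 in control PF, and 16.1, 17.05 and 16.5 in TNBS PF. The 3 PBS values lay close together below all 6 values with fluid, and PBS 2 was not apart for this gene. It rose from 13.6 ± 0.205 to 17.3 ± 1.18 FPKM (SD, n = 3 each), by 0.33 (SE 0.0464, adjusted p = 0.0031), and was called in all 20 alternatives (0.00314 to 0.0229). No exon of it overlaps another gene and none of its 100-base windows is shared. Its promoter, printed above, held 1 ETS match.

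Ndufs6, an accessory subunit at the matrix arm of complex I (chr13:73319838-73328542, minus strand), had 20.6, 26.3 and 21.2 FPKM in PBS, 28.3, 29.8 and 27.7 in control PF, and 27.7, 30.1 and 25.6 in TNBS PF. PBS 2 was near the fluid values, and the other 2 PBS libraries were lower. The rise in control PF was 0.33 (SE 0.077, adjusted p = 0.0438), with 0.00235 without PBS 2 and up to 0.167 over alternatives. It was not called without any 1 of the 3 control PF libraries, TNBS PF 1, PBS 1 or PBS 3.

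Cox6c rose by 0.19 from PBS to control PF (SE 0.0439, adjusted p = 0.041), with the values given above, and the call was lost in 12 of 20 alternatives, with leaving out any library other than PBS 2 among them. Atp5g2, 1 of 3 genes for the same c subunit of the membrane rotor (chr15:102662864-102672352, minus strand), had 56.2, 59.3 and 55.05 FPKM in PBS, 65.5, 63.6 and 61.5 in control PF, and 58.0, 61.2 and 61.0 in TNBS PF. It rose by 0.16 (SE 0.0367, adjusted p = 0.0439), and the call was lost in 13 of 20 alternatives, with 7 of the 9 leave-outs among them (all but TNBS PF 1 and PBS 2). Of its 100-base windows 34.7% are shared with copies, so its level is uncertain. The other c subunit genes, Atp5g1 and Atp5g3, had mean levels of 6.77 and 70.3 FPKM and were not called.

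Ndufa4l2 (chr10:127514967-127517154, plus strand) had 30.1, 24.3 and 22.4 FPKM in PBS, 21.4, 15.9 and 14.4 in control PF, and 19.97, 22.8 and 20.04 in TNBS PF. The values of PBS and control PF did not overlap, but PBS 1 was far above the other 2 and control PF 1 close to PBS 3. It fell by 0.56 from PBS to control PF (SE 0.121, adjusted p = 0.031, 0.0018 to 0.158 over alternatives) and was not called without control PF 2, control PF 3 or PBS 1. Hif1a, which encodes a subunit of the hypoxia-inducible factor, moved the other way, from 96.8 ± 2.3 to 119.8 ± 1.03 FPKM (0.30, adjusted p = 0.00043). Between the fluids Ndufa4l2 differed by 0.28 (adjusted p = 0.162).

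The comparison of TNBS PF with PBS shares the PBS libraries with the one before it and the TNBS PF libraries with the first, so the 3 are not independent. Higher in TNBS PF were Atp5e and Atp5b of complex V, Uqcrq and Uqcr10 of complex III, and Ndufs6 and Ndufb4 of complex I. These were 6 of 94 members, with 0 lower (6.38%), where 16.7% of all tested genes were called, 7.8% higher and 8.88% lower. At an unadjusted p under 0.05 limma gave 24 members higher and 2 lower, where it gave 31% of all tested genes (1494 higher, 1772 lower). Limma voom called 12 members higher and 0 lower, and 954 higher and 1212 lower of 10525 genes. Of the 82 nuclear members 65 were above 0, with a median of 0.06 against −0.01 for all tested genes. Groups did not overlap for 14 members higher and 2 lower in TNBS PF, where 35.3% of all tested genes did not overlap (15.5% higher, 19.7% lower).

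Atp5e rose by 0.27 (SE 0.0464, adjusted p = 0.00187), to 16.5 ± 0.465 FPKM. Atp5b (chr10:128083273-128090391, plus strand) had 286, 293 and 296 FPKM in PBS, 305, 296 and 297 in control PF, and 319, 319 and 315 in TNBS PF. Each TNBS PF value stood above all 6 others. It rose from 292 ± 5.25 to 317 ± 2.45 FPKM, by 0.12 (SE 0.0266, adjusted p = 0.00735). Both genes were called in all 20 alternatives, with adjusted p up to 0.0111 for Atp5e and up to 0.0407 for Atp5b.

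Uqcrq, a small subunit of complex III (chr11:53427922-53430831, minus strand), had 24.0, 23.9 and 24.6 FPKM in PBS, 26.1, 28.01 and 27.4 in control PF, and 26.9, 29.7 and 31.0 in TNBS PF. The PBS values lay below all 6 fluid values, and the 2 fluids overlapped. It rose by 0.26 in TNBS PF (SE 0.0467, adjusted p = 0.0024, at most 0.014 over the 20 alternatives), and the difference of control PF from PBS was 0.16 (adjusted p = 0.0962). PBS 2 had the lowest of the 3 PBS values for this gene.

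Uqcr10, another small complex III subunit (chr11:4701973-4704342, minus strand), had 52.9, 62.9 and 54.6 FPKM in PBS, 65.9, 58.2 and 58.6 in control PF, and 63.2, 68.2 and 69.1 in TNBS PF. It rose by 0.23 in TNBS PF (SE 0.0625, adjusted p = 0.0225). Ndufb4, an accessory subunit of complex I (chr16:37647170-37654453, minus strand, 16.02% of windows shared with Ndufb4c), had 9.53, 11.7 and 11.6 FPKM in PBS, 12.6, 12.1 and 12.03 in control PF, and 12.1, 13.4 and 13.4 in TNBS PF. In both genes PBS 2 lay closest to the TNBS PF values.

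Ndufb4 rose by 0.23 (SE 0.0663, adjusted p = 0.0327) and Ndufs6 by 0.29 (SE 0.077, adjusted p = 0.0224), and for Ndufs6 the groups overlapped through PBS 2 and TNBS PF 3. Each of Uqcr10, Ndufb4 and Ndufs6 was called in 14 of 20 alternatives. Uqcr10 was not called without TNBS PF 2, TNBS PF 3, PBS 1 or PBS 3, Ndufb4 without TNBS PF 2, TNBS PF 3 or PBS 1 (0.14, adjusted p = 0.0959, without PBS 1), and Ndufs6 without TNBS PF 1, TNBS PF 2, PBS 1 or PBS 3.

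**Figure D3:**
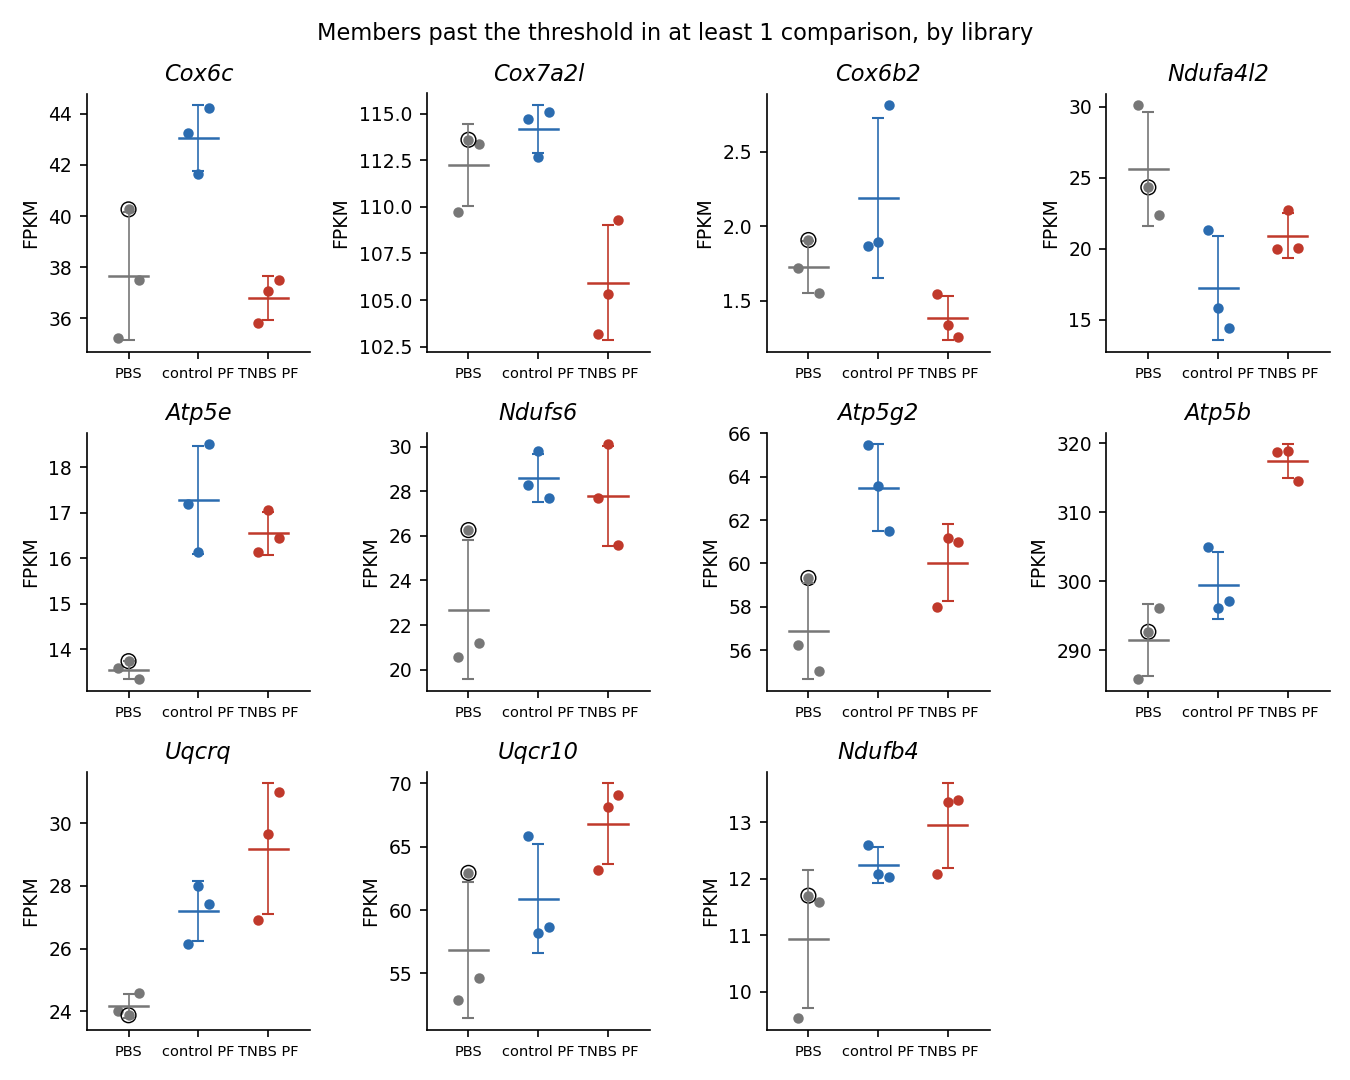
FPKM by library (points), group mean (line) and SD (bar) of the 11 members called in at least 1 comparison; each panel has its own linear axis, which does not start at 0, and PBS 2 is ringed. Atp5e and Uqcrq have all PBS values below all fluid values, while Ndufs6 and Uqcr10 have PBS 2 near the fluid values.

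Counts in both comparisons with saline changed with the PBS library left out. Those of control PF against PBS also fell when some fluid libraries were left out. In TNBS PF against PBS, the calls of Uqcr10, Ndufb4 and Ndufs6 were lost without some TNBS PF libraries, as given above. Without PBS 2, 15 members were higher and 1 lower in control PF, where 2.86% of all tested genes were called (1.83% higher, 1.04% lower), and 21 were higher and 0 lower in TNBS PF, where 15.3% were called (7.74% higher, 7.6% lower). The medians of the nuclear members were then 0.12 and 0.09, and 0.04 and 0.04 without PBS 1. Without PBS 1 the higher members numbered 2 and 3, and without PBS 3 they numbered 1 and 5.

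The members higher in both fluids without PBS 2 included Uqcr11, a small subunit of complex III, Atp5md, a small membrane subunit of ATP synthase, and Cox7c of complex IV. Uqcr11 had 37.7, 50.8 and 40.6 FPKM in PBS, 50.6, 53.9 and 47.6 in control PF, and 53.2, 50.2 and 49.5 in TNBS PF. Its difference of control PF from PBS was 0.24 (adjusted p = 0.165) with all libraries and 0.36 (adjusted p = 0.00297) without PBS 2. PBS 2 lay within the fluid values, and the other 2 PBS libraries lay below all of them. As PBS 2 was singled out on these same values, leaving it out favours higher calls. The p-values without PBS 2 are thus no independent support.

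With libraries centred within length bins, an alternative chosen after the data were seen, the median of nuclear members was 0.04 in both comparisons with PBS, and −0.00605 between the fluids. The calls then numbered 3 higher and 1 lower in control PF against PBS, 6 higher and 3 lower in TNBS PF against PBS (6 and 0 without centring), and 1 higher and 5 lower between the fluids. Without centring 2.15%, 16.7% and 10.6% of all tested genes were called in these comparisons. The shares of all genes with centring are not given here. Atp5e, Uqcrq and Atp5b were again called higher in the TNBS PF against PBS comparison (adjusted p = 0.00351, 0.00599 and 0.00256).

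**Figure D4:**
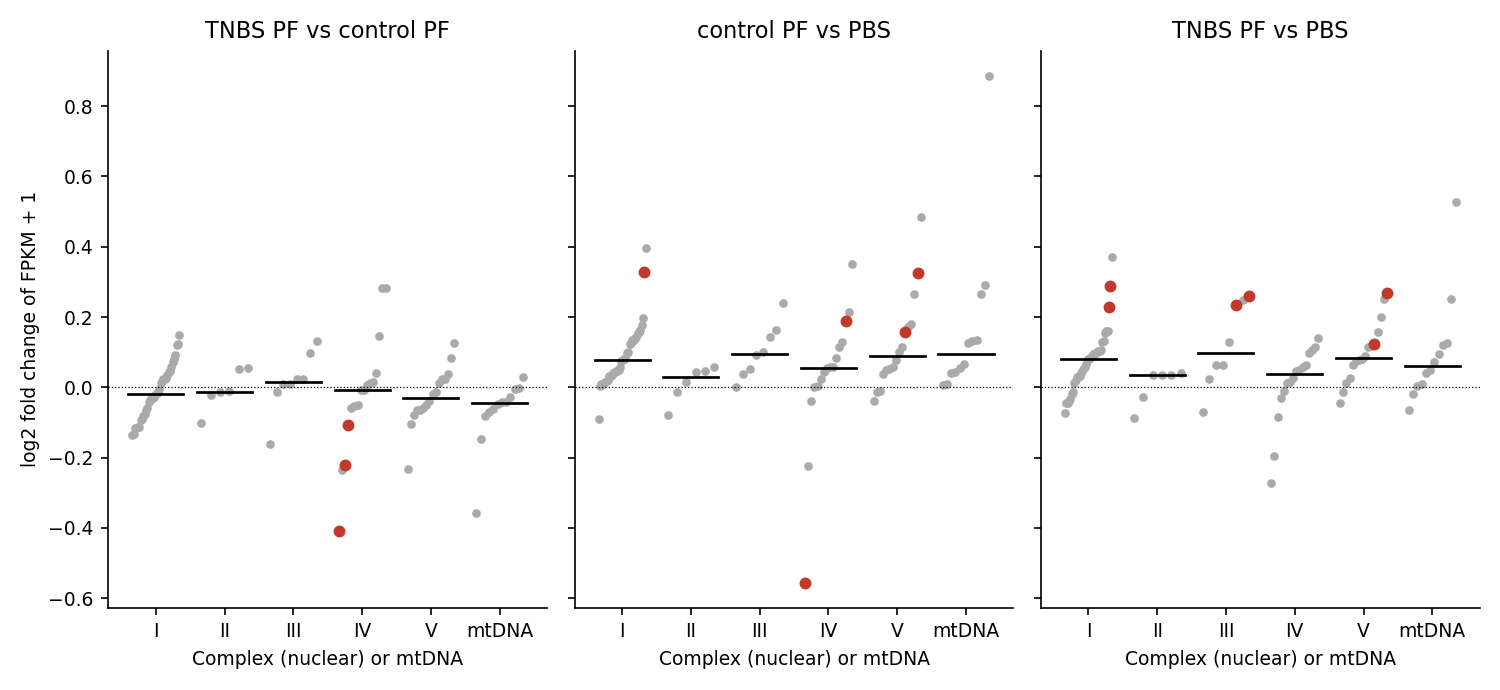
log2 fold change of FPKM + 1 of each tested member (points, ordered within a column) by complex for nuclear members and for mitochondrially encoded members, in the 3 comparisons; red points passed the adjusted p threshold of 0.05 and black lines are medians. The lines lie near 0 between the fluids and above 0 in most columns against PBS.

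By complex, the 36 tested nuclear genes of complex I had medians of −0.02 (TNBS PF against control PF), 0.08 (control PF against PBS) and 0.08 (TNBS PF against PBS), and 0, 1 and 2 calls. Its 7 core subunits of the matrix arm, which hold the flavin and the iron-sulfur clusters, had 0 calls in each. Complex II, the one complex with no mitochondrially encoded subunit, had medians of −0.01, 0.03 and 0.03 over 6 tested genes and 0 calls, with 0 also at an unadjusted p under 0.05 by limma and by limma voom. Those 6 include the assembly factors Sdhaf2 and Sdhaf4. Complex III had medians of 0.02, 0.10 and 0.10 over 8 genes and 0, 0 and 2 calls.

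Complex IV had medians of −0.01, 0.06 and 0.04 over 16 nuclear genes and 3, 2 and 0 calls. Of the genes called, Cox6c is a ubiquitous subunit, Cox7a2l the supercomplex factor, Cox6b2 the low testis isoform and Ndufa4l2 the paralog of Ndufa4. Complex V had −0.03, 0.09 and 0.08 over 16 nuclear genes and 0, 2 and 2 calls. Within complex V the 5 small membrane subunit genes had the highest medians against PBS, 0.18 and 0.16, with 0 calls, and Atp5k among them spread from 12.5 to 25.9 FPKM. The 3 tested peripheral stalk genes had 0.05 and −0.01. Where limma made 0 calls, it gave at an unadjusted p under 0.05 between the fluids 3 nuclear genes of complex I, 1 of III and 4 of V, 3 of complex III in control PF against PBS, and 3 of complex IV in TNBS PF against PBS; limma voom called 0, 1, 1, 0 and 1 genes there. Of all tested genes 10.6%, 2.15% and 16.7% were called in the 3 comparisons. Without PBS 2 the medians against PBS were 0.13 and 0.11 for complex I, 0.03 and 0.03 for II, 0.16 and 0.12 for III, 0.12 and 0.09 for IV, and 0.10 and 0.12 for V. The calls higher were then 4 and 9, 0 and 0, 1 and 3, 5 and 3, and 4 and 5. Whether complexes differed from each other was not tested.

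Of the 12 tested mitochondrially encoded members 0 were called in any of the 3 comparisons. At an unadjusted p under 0.05 limma gave 0, 4 and 2, all higher, and limma voom called 0, 1 and 1. The unadjusted counts were 0%, 33.3% and 16.7% of the 12, beside 25.3%, 15.6% and 31% of all tested genes. All 12 had a log2 fold change above 0 in control PF against PBS (median 0.10, from 0.01 to 0.89), 10 did in TNBS PF against PBS (median 0.06), and 1 did between the fluids (median −0.04). The medians against PBS moved with the setting: they were 0.15 and 0.13 without PBS 2, 0.03 and −0.00362 without PBS 1, and 0.04 and 0.00813 with length centring. mt-Nd4l had the largest difference, 0.89 in control PF against PBS (adjusted p = 0.051), at 1.12 to 6.57 FPKM in the 9 libraries. This gene had 198 fragments in all 9 libraries together, with 6 in PBS 2, and shared 98.5% of its 100-base windows with Gm10222. Its level and difference are thus uncertain.

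mt-Co3, a core subunit of complex IV, had 96.5, 120.4 and 109.7 FPKM in PBS, 130.2, 117 and 147 in control PF, and 119, 117 and 118 in TNBS PF (control PF against PBS 0.27, adjusted p = 0.102, and 0.0273 without PBS 2). In the authors' deposited table mt-Nd4l was the single member that passed both a p under 0.05 and a change of at least 2-fold, in control PF against PBS. The authors' deposited table gave 9, 16 and 15 of 100 members a p under 0.05 in the 3 comparisons, where 15.7%, 6.83% and 17.7% of all genes with a deposited p had one.

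Mitochondrially encoded members made up 7.42, 7.98 and 7.83% of all FPKM in PBS, 8.11, 7.68 and 7.69% in control PF, and 7.92, 7.49 and 7.66% in TNBS PF. Nuclear members made up 1.34, 1.43 and 1.36%, then 1.43, 1.42 and 1.45%, and 1.41, 1.43 and 1.40%. The ratio of the sums was 5.55, 5.58 and 5.77 in PBS, 5.67, 5.42 and 5.32 in control PF, and 5.62, 5.26 and 5.47 in TNBS PF. Every group overlapped with every other in the first share. By exact two-sided permutation tests of 3 against 3 libraries, which cannot give a p under 0.1, none of the 9 differences passed (p from 0.2 to 0.9, adjusted 0.675 to 0.9).

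Genes that act on the chain, most of them without being subunits, were counted from lists. Cycs, the cytochrome c that carries electrons from complex III to IV, had 53.6 ± 2.67 FPKM in TNBS PF, above both control PF (47.3 ± 1.52, 0.18, adjusted p = 0.0382) and PBS (46.2 ± 3.31, 0.21, adjusted p = 0.0112). Cyc1, the complex III subunit gene that the name rule missed, was in the same list and was not called in any comparison. It had 33.4 ± 1.49 FPKM in control PF and 32.3 ± 1.51 in PBS. Of 22 complex IV assembly genes, 3 were higher and 0 lower between the fluids, with TNBS PF above control PF, namely Cox11 (0.33), a copper chaperone, Cox10 (0.29), which makes heme for complex IV, and Lrpprc (0.18), which stabilizes mitochondrial mRNA. With TNBS PF set against PBS, 2 were higher, Cox10 (0.30) and Higd2a (0.18), and Surf1 was lower (−0.23). In each of these comparisons 13.6% of the 22 genes were called, where 10.6% and 16.7% of all tested genes were. Cox11 averaged 1.95 ± 0.224 FPKM in PBS, 1.34 ± 0.257 in control PF and 1.94 ± 0.174 in TNBS PF.

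Of 15 complex I assembly genes, 1 was higher (Ndufaf4, 0.24) and 1 lower (Tmem126b, −0.28) between the fluids, and 2 and 2 in TNBS PF against PBS. Of 11 genes of coenzyme Q, the carrier between complexes I, II and III, Coq10b was higher (0.20) and Coq9 lower (−0.27) between the fluids. In TNBS PF against PBS 3 were higher and 1 lower. Between the fluids and in TNBS PF against PBS, 13.3% and 26.7% of the complex I list were called. The coenzyme Q list gave 18.2% and 36.4%, and all tested genes gave 10.6% and 16.7%. The complex III list (5 genes) and the complex V list of assembly and inhibitor genes (5 genes) had 0 calls in all comparisons, with at most 1 at an unadjusted p under 0.05 in each and 0 by limma voom. The smallest p between the fluids was that of Uqcc3 (−0.21, adjusted p = 0.0803) and of Tmem70 (0.09, adjusted p = 0.0843). In control PF against PBS the lists of complex I and complex IV assembly and of coenzyme Q had 0 calls by limma and by limma voom, and 1, 5 and 2 at an unadjusted p under 0.05. Of all tested genes limma called 2.15% there, and 15.6% had an unadjusted p under 0.05. The smallest p in these lists were those of Ecsit (0.25, adjusted p = 0.105), Cox11 (−0.34, adjusted p = 0.0778) and Coq2 (0.13, adjusted p = 0.0712).

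Of 18 genes in a list for the tricarboxylic acid cycle, which feeds the chain with NADH and succinate, 1, 3 and 8 were called, all higher (5.56%, 16.7% and 44.4%), beside 10.6%, 2.15% and 16.7% of all tested genes. The list also holds genes of pyruvate dehydrogenase, which is no enzyme of the cycle itself. Of these, Pdhb was among the calls in control PF against PBS and Dlat among those in TNBS PF against PBS. Ogdh, an enzyme of the 2-oxoglutarate dehydrogenase complex, was higher in control PF (26.7 ± 1.98 FPKM) and in TNBS PF (27.2 ± 0.912) than in PBS (21.1 ± 1.01), by 0.33 (adjusted p = 0.00538) and 0.35 (adjusted p = 0.000541). Idh3a was higher with TNBS PF than with control PF (0.16, adjusted p = 0.0346). Of 25 genes of mitochondrial import and cristae, 4 were higher and 0 lower between the fluids, with Timm8a1 (0.46), Timm10 (0.42) and Tomm40 (0.34) first. In TNBS PF against PBS 7 were higher and 1 lower. In control PF against PBS 0 were called, with 6 at an unadjusted p under 0.05 and 0 by limma voom. Between the fluids, in control PF against PBS and in TNBS PF against PBS, 16%, 0% and 32% of this list were called. All tested genes gave 10.6%, 2.15% and 16.7%.

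Of 77 mitochondrial ribosomal protein genes, whose products translate the mitochondrially encoded subunits, 4 were higher and 0 lower between the fluids, 0 were called in control PF against PBS (7 at an unadjusted p under 0.05, 0 by limma voom), and 8 were higher and 1 lower in TNBS PF against PBS. These calls were 5.19%, 0% and 11.7% of the 77, where 10.6%, 2.15% and 16.7% of all tested genes were called. Of 81 cytosolic ribosomal protein genes 38 were higher and 0 lower in TNBS PF against PBS (46.9%), beside the 7.32% called of nuclear members and 16.7% of all tested genes. Without PBS 2, 59 were higher, where 7.74% of all tested genes were called higher.

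Of 16 genes that transcribe and maintain mitochondrial DNA 0 were called in any comparison (1, 0 and 2 at an unadjusted p under 0.05, 0 by limma voom), and the smallest adjusted p was that of Top1mt in TNBS PF against PBS (0.18, adjusted p = 0.0654). Of all tested genes limma called 10.6%, 2.15% and 16.7%, and 25.3%, 15.6% and 31% had an unadjusted p under 0.05. Among 7 tested regulators of mitochondrial biogenesis, Myc in TNBS PF exceeded both control PF (0.30, adjusted p = 0.000197) and PBS (0.25, adjusted p = 0.000442), and Esrra exceeded PBS (0.22, adjusted p = 0.0481). Without PBS 2 the calls of TNBS PF against PBS in this list fell from 2 to 1. The uncoupling carrier gene Ucp2 was lower (−0.34, adjusted p = 0.00974) and the adenine nucleotide carrier gene Slc25a5 higher (0.14, adjusted p = 0.0128) between the fluids. The mitochondrial protease gene Lonp1 was higher with TNBS PF than with control PF (0.15, adjusted p = 0.0382).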

How the data were processed

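RNA was sequenced in 9 libraries, isolated with Trizol per the labels' protocols. Reads were trimmed with cutadapt 1.15 and the build was mm10, per the submitters' processing notes. Aligner, counter and strand: not given in the sources used here. Per the file headers, the authors deposited 1 table with FPKM per library and with their own log2 fold changes and p-values for each pair of groups by a test not stated; these deposited p-values are quoted once. Deposited FPKM times GENCODE M21 exonic length (21902 genes matched) were whole fragments within 0.01 for 97.2 to 97.3% of values under 1000 fragments, which gave the depth.

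FPKM were tested as log2(FPKM + 1) with limma 3.58.1 in R 4.3.3 (mean-variance trend, all 9 libraries in 1 model, genes with at least 1 FPKM in at least 3 libraries), adjusted by Benjamini-Hochberg over 10537 genes. The fold change scale understates changes of low genes. The median standard error of a member was 0.0531. Shares were compared by exact permutation. The script was tested on simulated data. Alternatives changed pseudocount, filter, scaling, trend, samples and replicate block; limma voom on recovered fragments and length centring were chosen after seeing the data. Values per library are given for members past the threshold, the highest and lowest of each complex and isoform pairs; Uqcrh, Ndufa12, Uqcr11 and mt-Co3 were chosen for their values or as examples after these were seen. List genes were named by size among those past the threshold, or by smallest p where none passed. Members and lists were chosen with earlier results of these data known. Promoters come from RefSeq (GRCm38.p6).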

Additional observations from a re-analysis of the deposited data

How the results depend on the processing

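All values in this paragraph are counts called by limma or limma voom, and "higher" and "lower" mean the first group of a comparison against the second. The single calls that held in all 20 alternatives were Cox6c between the fluids, Atp5e in both comparisons with PBS, and Uqcrq and Atp5b in TNBS PF against PBS; the other 9 were lost in 5 to 13, and none reversed. In TNBS PF against control PF, members higher numbered 0, and 1 with median-ratio scaling, with limma voom and with length centring, 2 with only the 2 groups compared, and 0 to 2 leaving out 1 library. Members lower numbered 3, and 1 with no filter, 5 with TPM scaling, with TPM scaling over nuclear genes, with quantile normalization, with only the 2 groups and with length centring, and 1 to 6 leaving out 1 library (1 without control PF 3 or TNBS PF 2, 6 without PBS 1). In control PF against PBS, members higher numbered 4, and 1 with no filter, no trend or only the 2 groups, 2 with median-ratio scaling, and 1 to 15 leaving out 1 library. They were 1 without control PF 1, control PF 3 or PBS 3, 2 without control PF 2, TNBS PF 3 or PBS 1, and 15 without PBS 2. Members lower numbered 1, and 0 with no filter, no trend or only the 2 groups, and 0 to 1 leaving out 1 library (0 without control PF 2, control PF 3 or PBS 1). In TNBS PF against PBS, members higher numbered 6, and 3 with no filter or no trend, 12 with limma voom, and 3 to 21 leaving out 1 library (3 without PBS 1, 21 without PBS 2). Members lower numbered 0, and 1 with TPM scaling, with TPM scaling over nuclear genes and with quantile normalization, and 3 with length centring. All genes called numbered 1117 (660 to 1254 leaving out 1 library), 227 (103 with no filter, 117 with no trend, 374 with limma voom, 115 to 301 leaving out 1 library) and 1758 (1148 to 1737 leaving out 1 library). The causes were not tested.

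The share of mitochondrially encoded members changed sign leaving out 1 library, from −0.249 to 0.00462 percentage points between the fluids, from −0.0788 to 0.205 in control PF against PBS and from −0.215 to 0.0691 in TNBS PF against PBS, where the median over members gave 0.0451 on the log2 scale. The ratio of the sums changed sign between the fluids (−0.107 to 0.0787), and as a difference of medians it was 0.0131 in control PF against PBS. None of these passed a test with all libraries.

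Replicate numbers are shared between groups, but nothing in the labels ties them. The deviations of same-numbered libraries correlated between −0.0978 and 0.0746, against −0.075 and 0.0776 for other numbers. Correlations over all tested genes cannot tell whether same-numbered libraries shared a culture, donor or batch that moved few genes. With a replicate block, members higher and lower numbered 0 and 2 (TNBS PF against control PF), 3 and 1 (control PF against PBS) and 7 and 0 (TNBS PF against PBS), and all genes called 906, 169 and 1537. Depth limits low members: 1 fragment in 1 kb is 0.0391 to 0.056 FPKM.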
